A study of Mus musculus with 72 samples.

Results

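The liver of undisturbed control mice was compared with epididymal white adipose tissue (eWAT) and pituitary of the same animals to find what sets liver apart across all genes. The liver group held 6 of the 72 RNA-seq libraries, those labelled FED.CTRL.LIV, and each was matched by animal number to that mouse's eWAT and pituitary libraries, so 18 libraries from 6 mice entered the comparison. All were adult males of the FVB.129P2-Pde6b+ Tyrc-ch/AntJ strain, a sighted FVB line. FED dams ate freely, and CTRL offspring ate a 10% fat diet from 8 weeks of age. The other groups, used here to repeat the comparison, were FED-HFD (a 45% fat diet), CR20-CTRL and CR20-HFD (dams given 20% less food from late gestation until weaning), with 6 mice in each and 24 mice in all. The diets lasted 10 weeks by the methods, while the labels allow for a longer course. Litter membership was not given, so mice of 1 group may be siblings, and p-values measure the spread between these mice. RNA of liver (the left lateral lobe) was taken up in DNA/RNA Shield, a preserving lysis buffer, and column-purified, whereas eWAT and pituitary RNA was prepared with RNAzol RT. Tissue and extraction method therefore cannot be told apart in any liver comparison.

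Most of the liver mass consists of hepatocytes, cells that secrete the bulk of the plasma proteins, assemble lipoproteins, make bile acids and urea, hold glucose reserves as glycogen, make glucose and ketone bodies during fasting, and oxidise and conjugate drugs and steroids. Kupffer cells (resident macrophages), sinusoidal endothelium, vitamin A-storing stellate cells and bile duct cells make up the rest. A small set of transcription factors, among them HNF4A, the FOXA proteins and C/EBPα, keeps hepatocyte genes active, and HNF4A binds sites such as CAAAGTCCA. The sequence GTTAATNAT is another motif of liver promoters.

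Proximal promoters of 7 liver genes are shown because they carry these sequences close to the start of genes whose RNA was far higher in liver. Each is the 200 bases before the start of the gene's canonical transcript (GENCODE annotation, GRCm39), written 5′ to 3′ on the gene's own strand. Capitals mark GTTAATNAT, or its reverse complement in Plg and F13b, in the first 5 promoters, and CAAAGTCCA in the last 2. Alb encodes albumin, Gc the vitamin D-binding protein, Plg plasminogen, F13b a coagulation factor XIII subunit and G6pc1 the enzyme that releases free glucose. Cyp8b1 encodes the sterol 12α-hydroxylase of bile acid synthesis and Baat the enzyme that conjugates bile acids to amino acids.
Alb, chr5:90608549-90608748, forward strand: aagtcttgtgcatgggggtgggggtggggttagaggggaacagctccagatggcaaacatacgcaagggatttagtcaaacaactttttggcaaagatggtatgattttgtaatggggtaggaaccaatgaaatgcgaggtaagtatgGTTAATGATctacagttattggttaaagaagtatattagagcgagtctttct
Gc, chr5:89605758-89605957, reverse strand: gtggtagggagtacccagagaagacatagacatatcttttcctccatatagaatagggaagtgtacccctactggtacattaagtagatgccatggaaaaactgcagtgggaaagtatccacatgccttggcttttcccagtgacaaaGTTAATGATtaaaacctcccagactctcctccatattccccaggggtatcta
Plg, chr17:12597291-12597490, forward strand: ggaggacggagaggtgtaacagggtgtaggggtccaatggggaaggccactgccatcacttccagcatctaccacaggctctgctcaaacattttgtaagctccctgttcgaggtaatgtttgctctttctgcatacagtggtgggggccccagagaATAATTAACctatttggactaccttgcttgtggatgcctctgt
F13b, chr1:139429207-139429406, forward strand: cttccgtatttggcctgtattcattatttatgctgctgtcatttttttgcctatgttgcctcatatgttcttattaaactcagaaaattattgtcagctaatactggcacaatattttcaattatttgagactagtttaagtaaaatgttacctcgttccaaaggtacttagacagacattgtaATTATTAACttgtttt
G6pc1, chr11:101258169-101258368, forward strand: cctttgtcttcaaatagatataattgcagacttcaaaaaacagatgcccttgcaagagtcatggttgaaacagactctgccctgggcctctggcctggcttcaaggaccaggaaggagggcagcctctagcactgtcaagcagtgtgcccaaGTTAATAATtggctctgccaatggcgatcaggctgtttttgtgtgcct
Cyp8b1, chr9:121745372-121745571, reverse strand: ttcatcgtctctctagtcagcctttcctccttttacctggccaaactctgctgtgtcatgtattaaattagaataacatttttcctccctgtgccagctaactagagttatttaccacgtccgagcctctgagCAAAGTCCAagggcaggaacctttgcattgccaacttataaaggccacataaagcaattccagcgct
Baat, chr4:49506564-49506763, reverse strand: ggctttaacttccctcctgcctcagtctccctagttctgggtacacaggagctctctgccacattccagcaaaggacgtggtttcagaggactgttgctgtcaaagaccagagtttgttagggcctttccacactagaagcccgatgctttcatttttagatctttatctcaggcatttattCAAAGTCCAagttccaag

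The first base of the capitals lay 52 bases before the start in Alb and in Gc, 43 in Plg, 16 in F13b, 48 in G6pc1, 67 in Cyp8b1 and 18 in Baat. Another annotated Alb transcript begins further upstream, at chr5:90608647, so the later part of the Alb stretch lies within the annotated span of the gene. A match is a description of the letters and was not tested as a binding site.

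Liver libraries held 12889761 to 19144967 counts (median 17987921), eWAT libraries 18896702 to 22364963 and pituitary libraries 19873969 to 23666117. Liver was thus read less deeply, and 3 counts in a liver library amounted to 0.221 to 0.304 counts-per-million (CPM), against 0.104 to 0.135 in the other tissues. Levels are given as CPM after TMM scaling (trimmed mean of M values, which sets library sizes on the bulk of the genes), and levels of different genes are compared only as transcripts-per-million (TPM), which are per length. In bulk tissue, fewer cells of a type and less RNA per cell cannot be told apart. Differences are log2 fold changes (log2FC) from edgeR's quasi-likelihood test with the animal as a block and Benjamini-Hochberg adjustment over the 17255 genes tested. A gene was called at an adjusted p of at most 0.055 and a log2FC of at least 1 in size.

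The tissues differed in a large part of the transcriptome. Against the mean of eWAT and pituitary, 3712 genes were higher in liver (21.5% of those tested) and 5286 were lower (30.6%). Against eWAT alone the counts were 3359 higher (19.5%) and 5029 lower (29.1%), and against pituitary alone 4756 higher (27.6%) and 5859 lower (34%). Genes higher in liver than in each of the other tissues, here called liver-high, numbered 2381 (13.8%), and genes lower than in each, called liver-low, numbered 3223 (18.7%). A log2FC of at least 3 in both comparisons was met by 1016 genes (5.89%), called strongly liver-high. The median log2FC of all genes against the mean was -0.19, and -0.89 when libraries were scaled by their totals alone, so the split of calls depends on the scaling: by library totals, 2355 genes were higher, 1584 were liver-high and 5107 were liver-low.

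The liver-high genes took up most of the liver's counts. They were chosen as higher in these same livers than in these same other libraries, so the shares are a description. They held 65.4% to 67.4% of all counts in the 6 liver libraries, with a median of 66.5%, against a median of 10.7% in eWAT and 5.52% in pituitary. The strongly liver-high genes alone held a median of 47% of liver counts, 1.43% of eWAT counts and 0.489% of pituitary counts. Of the liver-high genes, 147 had no count in any of the 12 eWAT and pituitary libraries, and 302 liver-low genes had none in the liver libraries.

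**Figure D1:**
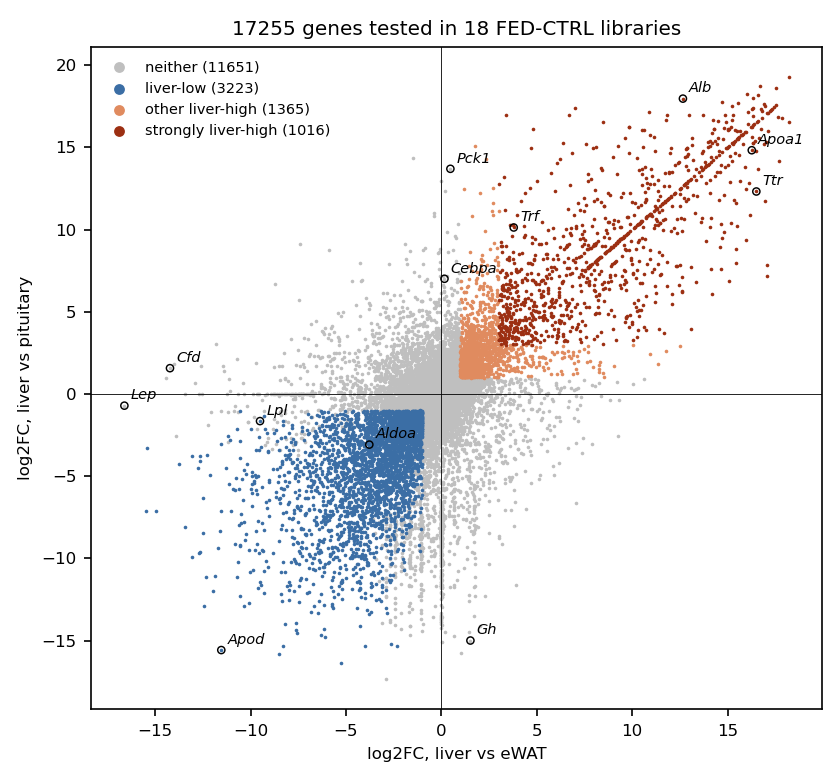
Each point is 1 of 17255 genes, placed by its log2FC between liver and eWAT (horizontal axis) and between liver and pituitary (vertical axis) in the 18 FED-CTRL libraries, with colours for the 1016 strongly liver-high, the 1365 other liver-high, the 3223 liver-low and the remaining 11651 genes. Alb, Apoa1 and Ttr stand at the far upper right, Lep and Gh at the far left and bottom, and Cebpa and Pck1 near 0 against eWAT but high against pituitary; points along a straight diagonal are genes with no or almost no counts in either other tissue, whose fitted values depend on the prior count.

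The 3 genes used as marks of the tissue were far higher in every liver than in any other library. Alb was at 58975, 101006 and 115801 CPM (lowest, median and highest of the 6 livers), at 10.6 to 19.5 CPM in eWAT and at 0.118 to 0.531 CPM in pituitary. The mean level of Alb was 6524-fold that in eWAT, and its share of a liver library's counts ran from 4.55% to 8.1%. Apoa1, the main protein of high-density lipoprotein, was at 10910, 13779 and 21227 CPM in liver, at 0 to 0.473 CPM in eWAT and at 0.353 to 0.8 CPM in pituitary. Ttr, the thyroxine and retinol carrier transthyretin, was at 8077, 10271 and 11641 CPM in liver, at 0 to 0.196 CPM in eWAT and at 0.417 to 6.75 CPM in pituitary. The livers did not overlap either other tissue for any of the 3, while eWAT and pituitary overlapped for Apoa1. The log2FC against the mean of the other tissues was 15.31 ± 0.241 (SE) for Alb, 15.55 ± 0.249 for Apoa1 and 14.41 ± 0.336 for Ttr. These genes were picked because they are known to be high in liver, so the values are a description.

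Per length, Alb was the most abundant nuclear transcript of the liver at 46871 ± 9776 TPM (SD, n = 6), behind mt-Co1 alone at 51572 ± 8405 TPM. Fabp1, the liver fatty acid-binding protein, followed at 28374 ± 5152 TPM, then Apoa1 at 21316 ± 4509, Apoe at 16923 ± 1666, the haem carrier Hpx at 15338 ± 5948 and Ttr at 13125 ± 1310. Apoe, Hpx and Ttr lie within 1 SD of Hpx of each other. Car3, a carbonic anhydrase, was the most abundant nuclear transcript on this scale that was not liver-high: it stood at 6232 ± 1011 TPM in liver and at 37598 TPM in eWAT. It is named here after its values were seen.

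**Figure D2:**
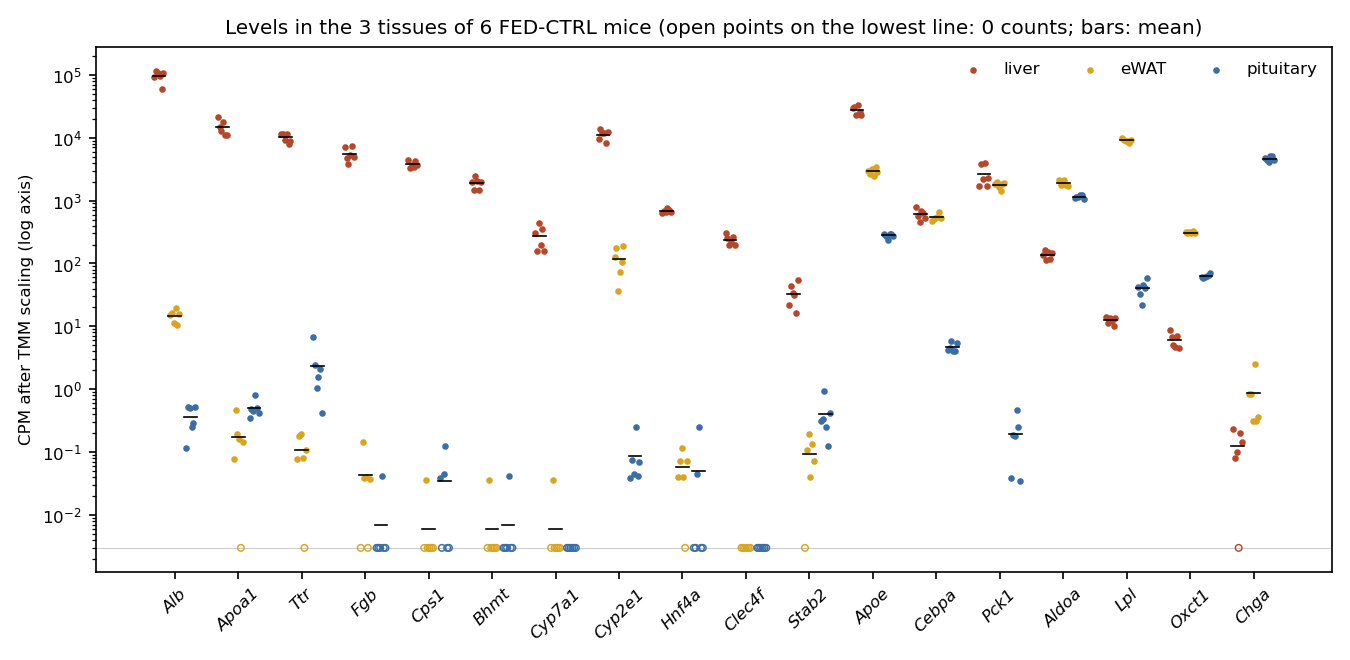
CPM after TMM scaling (log axis) of 18 genes in liver, eWAT and pituitary of the 6 FED-CTRL mice, 1 point per mouse, with a bar at the mean and open points on the lowest line for libraries with 0 counts. From Alb to Apoe the liver points lie above both other tissues, at Cebpa and Pck1 they overlap those of eWAT, and from Aldoa to Chga they lie lowest.

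The 10 genes with the highest log2FC against the mean of eWAT and pituitary were Ces1c, Hamp, Fgb, Sult2a8, Ces3b, Cps1, Fabp1, Ugt2b36, Cyp3a11 and Fga. Their order is not a ranking of the liver levels, because each had between 0 and 11 counts over all 6 libraries of each other tissue and a fitted log2FC there depends on the prior count. Ces1c, a secreted carboxylesterase, was at 3226, 3864 and 4362 CPM in liver, with 1 count over the 6 eWAT libraries and 0 over the 6 pituitaries. Hamp, which encodes the iron hormone hepcidin, was at 1652, 2446 and 3025 CPM, also with 1 count in eWAT and 0 in pituitary. Fga and Fgb encode fibrinogen chains, and Fgb was at 3879, 5175 and 7310 CPM in liver with 7 counts in eWAT and 1 in pituitary. Sult2a8, a bile acid sulfotransferase, was at 868 to 1612 CPM in liver and had no count in either other tissue, which makes it at least 59406-fold higher than in eWAT and at least 58529-fold higher than in pituitary. These bounds set the other group at 3 counts over its 6 libraries. The carboxylesterase Ces3b (580 to 1623 CPM, at least 54502-fold above eWAT) and the glucuronosyltransferase Ugt2b36 (660 to 1567 CPM, at least 51737-fold) had no count in either tissue as well. Cyp3a11, a drug-metabolising P450, was at 983 to 2353 CPM, and Cps1, the first enzyme of the urea cycle, at 3351 to 4479 CPM.

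Genes were then read by role, in 32 lists with 532 entries, of which 497 passed the filter on low counts. In every list, members that passed the filter only through the liver had to differ, so the list counts are a description. Plasma protein genes made up a large block of the liver's counts. All 31 tested carriers and protease inhibitors were liver-high, 27 of them strongly, with a median log2FC of 12.52 against the mean, beside 13.8% liver-high and a median of -0.19 over all genes. Together they ran from 192783 to 251549 CPM in the livers and from 4091 to 4858 CPM in eWAT. Azgp1, zinc-α2-glycoprotein, was at 1579, 1912 and 2856 CPM in liver with 3 counts in all eWAT libraries and 1 in all pituitaries. The lowest log2FC was that of Serping1, the C1 inhibitor, at 1240, 1413 and 1796 CPM in liver against 486 to 701 CPM in eWAT and 53.9 to 65 CPM in pituitary (log2FC 1.37 ± 0.121 and 4.65 ± 0.138). Trf, transferrin, was abundant in both liver (13934, 26075 and 29477 CPM) and eWAT (1648 to 2001 CPM), so that liver was 14.1-fold above eWAT and 1132-fold above pituitary.

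Of 28 coagulation and fibrinolysis genes, 19 were liver-high, every one of them strongly, and 2 were liver-low. Counting these 2, 7 were lower in liver than in eWAT, and 4 were lower than the mean of eWAT and pituitary. Prothrombin (F2) was at 2630, 2996 and 3995 CPM in liver, with 4 counts in all eWAT libraries and 4 in all pituitaries. Plg was at 2707, 2995 and 3310 CPM with 8 and 6 counts, and F13b, at 241 to 469 CPM, had none in either tissue (at least 16680-fold above pituitary). The liver-low pair consisted of Plat, the tissue plasminogen activator, and Thbd, thrombomodulin, both made mainly by endothelial cells. Plat was at 0.397, 0.505 and 1.02 CPM in liver, 17.4 to 22.2 CPM in eWAT and 39.3 to 53.8 CPM in pituitary (log2FC -5.72 ± 0.172 against the mean). Thbd was at 0.804 to 2.23 CPM in liver and 37.3 to 49.9 CPM in eWAT.

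Among 24 complement genes, 18 were liver-high and none liver-low. C8b, a part of the membrane attack complex, was at 348, 488 and 788 CPM in liver and had no count elsewhere, at least 26229-fold above pituitary. C3, the central component, was at 3922, 8209 and 10363 CPM in liver, 666 to 1429 CPM in eWAT and 18.6 to 35.7 CPM in pituitary, 7.94-fold above eWAT on average. Cfd, factor D or adipsin, went the other way: 0, 0.116 and 0.507 CPM in liver against 2279, 3370 and 4336 CPM in eWAT, while pituitary (0 to 0.225 CPM) overlapped the livers.

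Apolipoproteins and lipoprotein assembly gave 17 liver-high genes of 21, 16 of them strongly. Apoa2 was at 8609, 13133 and 14850 CPM in liver, with 14 counts in all eWAT libraries and 9 in all pituitaries. Apob, the backbone of the very-low-density particle, was at 4725, 6190 and 8126 CPM in liver and at most 0.225 CPM in every other library. Apoe was the most widely shared, at 23209 to 32607 CPM in liver, 2435 to 3458 CPM in eWAT and 238 to 297 CPM in pituitary, so that liver was 9.5-fold above eWAT. Lpl and Apod were liver-low. Lpl, the lipase that unloads triglyceride in adipose tissue, was at 10.3, 12.9 and 13.9 CPM in liver, 8334 to 9729 CPM in eWAT and 22.2 to 58.8 CPM in pituitary. Apod had no count in liver and was at 10.4 to 26.2 CPM in eWAT and 268 to 314 CPM in pituitary.

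Bile acid genes were liver-high in 18 of 19 tested cases. Slco1b2, an uptake transporter of the sinusoidal membrane, was at 1154, 1636 and 1824 CPM in liver with 2 counts in all eWAT libraries and 0 in the pituitaries. Slc10a1, the sodium-dependent bile acid importer, was at 1029 to 1329 CPM in liver (log2FC 14.16 ± 0.2). Cyp7a1, the rate-limiting enzyme, was uneven between livers, at 160, 251 and 443 CPM, with 1 count in all eWAT libraries and none in the pituitaries. Cyp8b1 was at 270, 422 and 794 CPM and Baat at 377, 480 and 637 CPM, both at most 0.352 CPM in every other library. Cyp27a1, which opens the alternative pathway, had the smallest difference of the list, at 421 to 659 CPM in liver against 69.7 to 90.8 CPM in eWAT (log2FC 3.86 ± 0.102 against the mean). Klb, the coreceptor of FGF21 and FGF15, was the exception at 19.8 to 40.9 CPM in liver and 45.7 to 65.7 CPM in eWAT.

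All 8 urea cycle genes were strongly liver-high. Cps1 had 1 count in all eWAT libraries and 5 in all pituitaries, and Otc, at 594, 700 and 1055 CPM in liver, had 3 and 0. Ass1 was at 1897, 3438 and 5235 CPM in liver, 2.92 to 5.61 CPM in eWAT and 130 to 188 CPM in pituitary, so its distance from pituitary (log2FC 4.39 ± 0.217) was smaller than from eWAT (9.63 ± 0.276). Asl had the lowest log2FC of the list, 5.01 ± 0.111, with 711 to 1478 CPM in liver.

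Enzymes of amino acid catabolism were liver-high in 21 of 24 cases. Bhmt, which remethylates homocysteine with betaine, was at 1449, 1982 and 2438 CPM in liver and had 1 count in each of the other tissues. Glul, glutamine synthetase, had the lowest log2FC at 1.22 ± 0.103: it was at 686 to 1115 CPM in liver, 454 to 599 CPM in eWAT and 246 to 311 CPM in pituitary and fell short of the fold threshold against eWAT. Got1 and Sdsl fell short as well, Got1 at 0.89 ± 0.156 against pituitary and Sdsl at 0.09 ± 0.143 against eWAT.

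Of 16 genes of gluconeogenesis and hexose handling, 12 were liver-high. G6pc1 was at 203, 396 and 753 CPM in liver, 0.196 to 0.328 CPM in eWAT and without a count in pituitary. Fbp1 was at 1342, 1429 and 2321 CPM in liver with 1 count in all eWAT libraries. Slc37a4, the glucose 6-phosphate transporter that partners G6pc1, was broader, at 390 to 568 CPM in liver and 17.5 to 23.3 CPM elsewhere. The 4 members not called were shared with eWAT: Pck1 (phosphoenolpyruvate carboxykinase) was at 1713, 2279 and 3944 CPM in liver and 1435 to 1998 CPM in eWAT, overlapping, but at most 0.463 CPM in pituitary. Pcx was lower in liver than in eWAT by 0.26 ± 0.109 on the log2 scale, and Pygl and Ppp1r3c were at log2FC 0.8 ± 0.104 and 0.95 ± 0.226 against eWAT.

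In the list of 16 ketone and fatty acid oxidation genes, 11 were liver-high and 1 was liver-low, with a median log2FC of 2.77. Oxct1, needed to burn ketone bodies, was at 4.48, 5.82 and 8.9 CPM in liver, 302 to 329 CPM in eWAT and 58.9 to 71.1 CPM in pituitary (log2FC -4.53 ± 0.142). Acot12, an acetyl-CoA hydrolase, led the list at 135 to 162 CPM in liver, and Cpt1a, the gate of mitochondrial fatty acid entry, was at 245 to 584 CPM against 91.4 to 126 CPM elsewhere.

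Cytochromes P450 of families 1 to 4 were liver-high in 29 of 30 cases, 28 of them strongly, with a median log2FC of 14.33, or 13 with genes at 0 counts set to 3 counts. Of the 30, 7 had no count in either other tissue and 16 had none in at least 1 of them. Cyp2e1, which oxidises ethanol, had the highest TPM of them (9902 ± 1778) and was at 8178, 11872 and 13582 CPM in liver, with 37 to 192 CPM in eWAT and at most 0.253 CPM in pituitary. Cyp1a2, a caffeine oxidase of the central vein zone, was at 434, 856 and 1236 CPM in liver, with no count in eWAT and 1 in all pituitaries. Cyp4v3 had the lowest called difference, at 409 to 567 CPM in liver and 50.3 to 59.8 CPM in eWAT. Cyp4b1 was higher in eWAT (29.5 to 60.4 CPM) than in liver (4.73 to 11 CPM). Several P450 subfamilies are near-identical copies, and how reads were divided within them is uncertain. Of 19 conjugation enzymes, 18 were liver-high, among them Ugt2b36 and, with the lowest log2FC of the list, Gstm1, a glutathione transferase at 981 to 1988 CPM in liver and 521 to 637 CPM in eWAT. Gstz1 was the exception, at log2FC 0.78 ± 0.128 against eWAT.

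**Figure D3:**
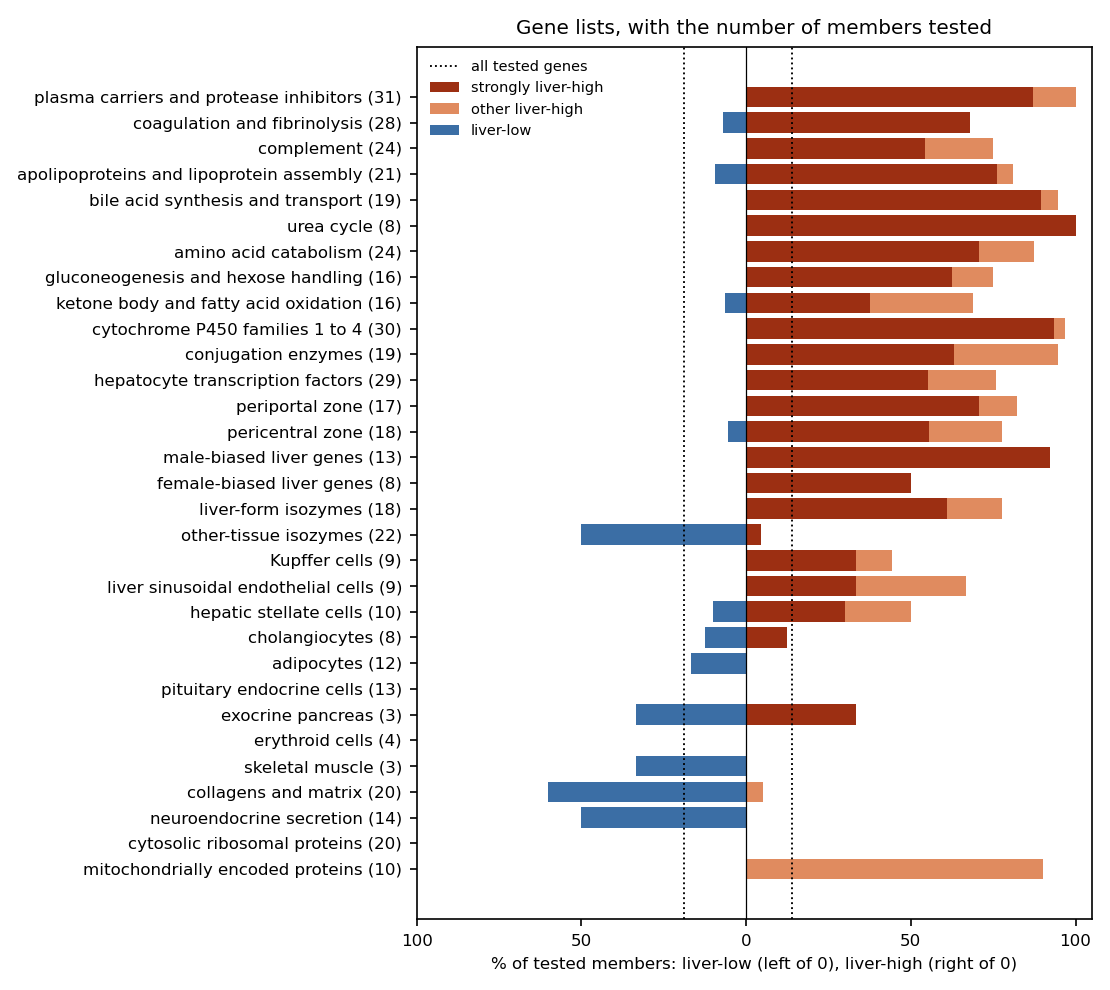
Bars give the percentage of tested members of each gene list that were strongly liver-high (dark), otherwise liver-high (light) or liver-low (left of 0), with the number of tested members in brackets, and dotted lines mark the percentage among all tested genes (13.8% and 18.7%). All 31 plasma carriers and all 8 urea cycle genes are liver-high, none of the 20 ribosomal protein genes are called, and liver-low members make up the larger share in other-tissue isozymes, collagens and neuroendocrine secretion.

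Most regulators on the list were liver-high as well. Of 29 transcription factors listed for hepatocytes, 22 were liver-high, 16 of them strongly, and the median log2FC was 5.38. Hnf4a was at 628, 675 and 768 CPM in liver, with 9 counts in all eWAT libraries and 7 in all pituitaries. Foxa3 was at 72.1 to 139 CPM in liver and had no count elsewhere (at least 4628-fold above pituitary). Cebpa did not separate liver from eWAT: it was at 451, 608 and 796 CPM in liver and 482, 535 and 666 CPM in eWAT (log2FC 0.16 ± 0.142, adjusted p = 0.321), but at 3.99 to 5.95 CPM in pituitary. Nr1h3 and Srebf1, regulators of lipid synthesis, were at log2FC 0.79 ± 0.12 and 0.68 ± 0.119 against eWAT, under the fold threshold, and Cebpd, Esr1, Gata6 and Zfp750 were not higher than in both tissues.

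Within the lobule, hepatocytes near the portal vein and near the central vein carry different enzymes, and both sets were found. Of 17 periportal genes, 14 were liver-high (median log2FC 7.88), among them Cps1. Of 18 pericentral genes, 14 were liver-high (median 4.00), among them Cyp1a2, and Axin2, a target of Wnt signalling, was liver-low at 2.61, 7.11 and 10.3 CPM against 34.1 to 50.7 CPM in eWAT and 17.4 to 25.4 CPM in pituitary. Tbx3, a pericentral transcription factor, was at 7.84 to 39.9 CPM in liver and 4.62 to 6.36 CPM elsewhere. Sox9, placed in the periportal list and known also from bile ducts, had the lowest log2FC of that list at -1.51 ± 0.236. Bulk values cannot place a transcript in a zone.

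Genes known to differ between the livers of males and females were looked at in these males. Of 13 male-biased genes, 12 were liver-high, among them Hsd3b5 at 153, 285 and 543 CPM, Mup20 (darcin, a urinary pheromone) at 98.3, 163 and 373 CPM and Cyp2d9 at 1711, 1965 and 2879 CPM. Hsd3b5 and Mup20 had no count in either other tissue. The exception, Susd4, was at 22.3 to 63.9 CPM in liver and 26.7 to 43.7 CPM in pituitary. Of 14 female-biased genes only 8 passed the filter on low counts, and 4 of these were liver-high: Cyp2b9 at 9.25, 83 and 144 CPM, Acot3 at 10.2, 43 and 68.3 CPM, Cyp2a4 at 0.753 to 3.28 CPM and A1bg at 0.71 to 3.82 CPM. Members that passed only through the liver had to differ, so the counts of this list are a description.

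Where an enzyme has several forms, the liver form was in most cases high and that of other tissues in many cases low. Of 18 liver-form genes, 14 were liver-high, and of 22 genes for the forms of other tissues, 11 were liver-low and 1 was liver-high (median log2FC 7.10 and -2.26). Pklr, the liver pyruvate kinase, was at 407, 505 and 569 CPM in liver, with no count in eWAT and 1 in all pituitaries, whereas Pkm was at 25.7 to 38.1 CPM in liver, 349 to 502 CPM in eWAT and 1057 to 1275 CPM in pituitary. Aldoa was at 112 to 164 CPM in liver and 1700 to 2118 CPM in eWAT. Pygb, brain glycogen phosphorylase, had the lowest log2FC of the second list at -5.58 ± 0.167.

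Slc2a2, the low-affinity transporter GLUT2, was at 490, 541 and 643 CPM in liver, with no count in eWAT and 2 in all pituitaries. Hk1 was at 1.71 to 5.17 CPM in liver against 234 to 317 CPM in pituitary, and Hk2 was at 1.54 to 2.34 CPM against 116 to 186 CPM in eWAT. Mat1a was at 4801 to 6809 CPM in liver with 5 counts in all eWAT libraries, but Mat2a (87.7 to 162 CPM in liver, 172 to 199 CPM in eWAT, 26.4 to 50.4 CPM in pituitary) was between the other tissues rather than low. Slc2a1 did not separate liver from eWAT either (log2FC 0.18 ± 0.118), and Pfkl, the liver phosphofructokinase by name, was at 49.8 to 75.7 CPM in liver against 118 to 170 CPM elsewhere. Its log2FC was -1.19 ± 0.105 against pituitary, a call, and -0.89 ± 0.104 against eWAT, under the fold threshold. Adh7 was the liver-high gene of the second list, at 48.4 to 82.3 CPM in liver. Per length it stood at 35.4 ± 8.02 TPM there, and Adh1, of the first list, at 1638 ± 268 TPM.

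**Figure D4:**
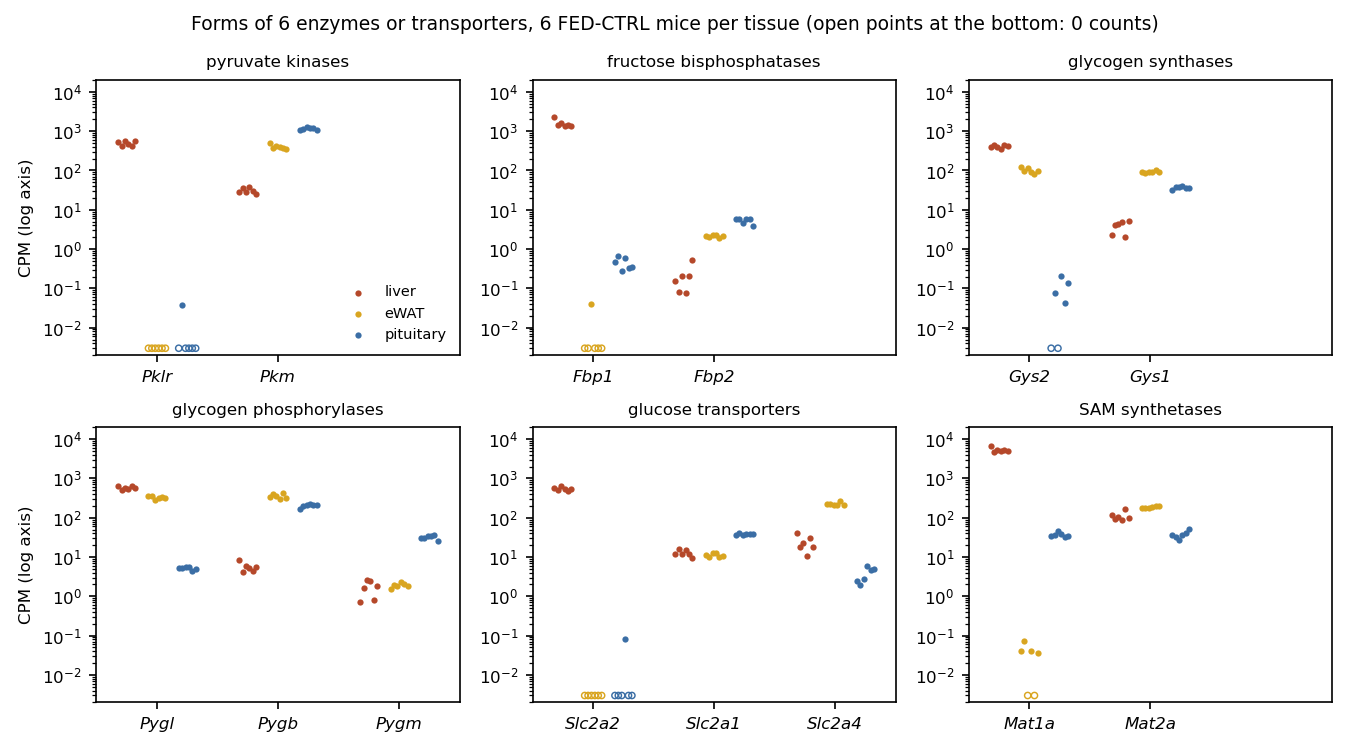
CPM (log axis) of the forms of 6 enzymes or transporters in liver, eWAT and pituitary, 1 point per FED-CTRL mouse and open points at the bottom for 0 counts. In each panel the form on the left is highest in liver, while Pkm, Fbp2, Gys1 and Pygb lie lower in liver than in both other tissues; Pygm, Slc2a1, Slc2a4 and Mat2a do not.

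Genes of liver cells other than hepatocytes were in part liver-high. Clec4f, the receptor that defines Kupffer cells in mice, was at 196, 236 and 307 CPM in liver and had no count in the other 12 libraries. Vsig4, Cd5l and Marco were liver-high too, so that 4 of 9 Kupffer genes were liver-high. As many, 4 of 9, were lower in liver than in eWAT, and the median log2FC of the list against eWAT was -0.18. Adgre1 (F4/80, common to macrophages) was 1 of these, at 33.7 to 59.4 CPM in eWAT and 8.59 to 16.3 CPM in liver. All 9 were higher than in pituitary. For sinusoidal endothelium 6 of 9 were liver-high, with Clec4g at 49.3 to 74 CPM and Stab2 at 16.6, 32.4 and 53.7 CPM in liver, each under 1 CPM in every other library. For stellate cells 5 of 10 were liver-high, with Reln at 25 to 58.2 CPM, Lrat (which esterifies retinol) at 19.6 to 26.3 CPM and Colec11 at 34.8 to 59.3 CPM, while Pdgfrb was liver-low. Of the bile duct genes, Krt7 (0.503 to 1.03 CPM) and Krt19 (0.804 to 1.83 CPM) were lower than in eWAT.

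Marks of the other tissues were low in the livers. The 12 adipocyte genes summed to 39.2 to 72.6 CPM in liver and 36260 to 42074 CPM in eWAT, and all 12 were lower in liver than in eWAT. The 13 pituitary hormone and factor genes summed to 4.67 to 16.4 CPM in liver and 207377 to 341387 CPM in pituitary, with Gh at 3.31 to 14 CPM in liver and Prl at 0.0795 to 0.203 CPM. Retn had 1 count and Nr5a1 none over the 6 livers. The 6 erythroid genes, which follow the blood left in a tissue, summed to 202, 293 and 356 CPM in liver (lowest, median and highest), 102, 182 and 330 CPM in eWAT and 1379, 1674 and 4827 CPM in pituitary. Liver thus overlapped eWAT and lay below pituitary, and 1 of the 4 that passed the filter on low counts, Alas2, was called above eWAT. Of the lists for tissues that could be cut along with liver, 3 of 9 exocrine pancreas genes passed the filter on low counts. Cela2a was at 0.795 to 2.34 CPM in liver only, and Cpa1 had no count there. The 9 genes together summed to 62.2, 85.8 and 131 CPM in liver (lowest, median and highest). They summed to 43.6 to 63.4 CPM in eWAT and 1.16 to 1.85 CPM in pituitary. Cela2a and Cpa1 were thus a small part of the liver sum. Of 7 skeletal muscle genes 3 passed, with Acta1 liver-low, and of 9 epididymis and testis genes 1 passed and was not called.

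The liver-low genes were mainly shared by eWAT and pituitary. The 10 with the lowest log2FC were Apod, Map6, Ly6h, Klf14, Ap3b2, Fgf13, Disp2, Sfrp5, 9330159F19Rik and Cidea, and 8 of them had no count in any liver library. Klf14, an imprinted zinc finger factor, was at 18.1 to 30.1 CPM in eWAT and 17.6 to 29.7 CPM in pituitary. Sfrp5, a secreted Wnt inhibitor, was at 247, 286 and 346 CPM in eWAT and 25.9 to 37.3 CPM in pituitary, with 2 counts over the 6 livers. Map6, a microtubule stabiliser, was at 29.2 to 37.5 CPM in eWAT and 38.5 to 50.9 CPM in pituitary. Of 20 collagen and matrix genes, 12 were liver-low and 1 was liver-high. That one was Fn1, the plasma and matrix fibronectin, at 747, 2149 and 2568 CPM in liver and 433 to 744 CPM in eWAT, whereas Sparc was at 52.3 to 116 CPM in liver and 3135 to 4449 CPM in eWAT. Of 14 neuroendocrine secretion genes, 7 were liver-low, with Chga at 0 to 0.234 CPM in liver and 4169 to 5162 CPM in pituitary. Syt1 was 1 of 2 members above eWAT, at 17.5 to 22.4 CPM in liver and at most 0.109 CPM in eWAT. It was the only member called above the mean of eWAT and pituitary.

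Lists not tied to a liver function were split. None of 20 cytosolic ribosomal protein genes was called liver-high or liver-low (median log2FC -0.46 against the mean), although 12 were lower than in pituitary. Of 10 tested mitochondrially encoded protein genes, 9 were liver-high, with mt-Co1 at 26637, 31878 and 40493 CPM in liver, 9865 to 13173 CPM in eWAT and 4518 to 6663 CPM in pituitary, and mt-Nd4 missed against eWAT (0.79 ± 0.198). Only 4 of these 9 were called again in all of the other groups. For 6 genes of the mitochondrial genome (mt-Co2, mt-Atp8, mt-Atp6, mt-Co3, mt-Nd4l and mt-Nd3), 92.3% to 100% of their 100-base windows also occur on chromosome 1. These had 2.68 to 15.7 TPM in liver against 8252 to 51572 TPM for the other 7. Among the other 7, mt-Nd4 had 60.9% and mt-Co1 had 26% of its windows there, so their values are affected by this limit too. Counts of shared reads are uncertain, and the list covers only part of the mitochondrial RNA. The sources name both a total RNA and an mRNA library kit without saying which tissue each served, and the part of the kit in these values and in those of non-coding RNA was not tested.

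Many strongly liver-high genes had another beside them on the chromosome. Of 1009 with a position, 478 (47.4%) had another strongly liver-high gene as the nearest tested neighbour on at least 1 side, against 1333 of the 16187 other tested genes (8.24%), and 29 runs of at least 4 in a row held 191 genes. The longest was the Mup cluster, 21 genes at chr4:60066445-62069175, followed by 14 genes around Ugt2b at chr5:87037626-87716933, 11 around Cyp2d at chr15:82254727-82678509 and 10 around Cyp2c at chr19:39257849-40182814. F13b stood in a run of 9 with the complement factor H family at chr1:139429407-140111502. Ahsg, Fetub, Hrg, Kng1 and Kng2 formed a run of 6 with a predicted gene at chr16:22683330-22900840. Members of such families share sequence, and reads may be split or lost between copies. Among protein-coding genes 13% were liver-high, among long non-coding RNA genes 18.4%, and on the X chromosome 7.04%, where 26.7% were liver-low. Chromosome 18 had a like share of liver-low genes (26.6%), with 13.1% liver-high.

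Promoters of the strongly liver-high genes held fewer CpG dinucleotides and held the motifs printed in capitals above more often. In windows from 250 bases before to 50 after the start of 15025 protein-coding genes (GRCm39), the median ratio of observed to expected CpG was 0.664 over all, 0.517 for liver-high, 0.272 for strongly liver-high and 0.591 for liver-low genes. A ratio under 0.5 was found in 73.6% of the 785 strongly liver-high promoters and in 32.8% of all. GTTAATNAT, searched on both strands, was in 93 promoters in all (0.619%), of which 48 were liver-high (2.46% of 1951), 37 strongly liver-high (4.71% of 785) and 10 liver-low (0.34% of 2940). The shorter GTTAAT, which includes every match of the longer form, was in 5.38% of all and 14.3% of strongly liver-high promoters. CAAAGTCCA was in 0.466% of all and 1.78% of strongly liver-high promoters, TTGCNNAA, bound by C/EBP proteins, in 9.33% and 16.3%, and TGTTTAC, bound by FOXA proteins, in 2.86% and 4.97%. The full C/EBP palindrome TTGCGCAA, which TTGCNNAA includes, was in 0.253% of all and in 0.255% of strongly liver-high promoters (2 of 785), nearly the same share. A second FOXA form, TGTTTGC, was in 4.18% and 7.39%. CACGTG, an E-box that is no hallmark of liver, was in 9.38% of all and 7.77% of strongly liver-high promoters. These shares carry no test, neighbouring family members have related promoters, and base composition differs between the sets.

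Before the comparison was repeated in the other groups, liver genes were looked up in the eWAT and pituitary libraries, and 3 eWAT libraries stood apart. For this look-up, CPM were taken on library totals, without the TMM scaling used for the other levels. The summed level of the 10 leading genes was 168 CPM in the eWAT of mouse 10 and 29.8 CPM in that of mouse 13 (both FED-HFD), and 127 CPM in that of mouse 5 (CR20-CTRL), with all 10 genes above 0 in each. In the other libraries of these tissues it was at most 2.44 CPM, and in the FED-CTRL mice 0.0507 to 0.402 CPM in eWAT and 0 to 0.257 CPM in pituitary. For mouse 10 the level was 8363 ppm (CPM in the eWAT per 1e6 CPM in the liver) of that in the same mouse's liver, and its genes lay between 7010 and 11054 ppm. For mouse 13 it was 1538 ppm, with genes between 819 and 3565 ppm, and for mouse 5 it was 4544 ppm, with genes between 1562 and 12745 ppm, so the share was more uneven between genes in these 2 libraries than in that of mouse 10. The cause was not tested, and the libraries were singled out after their values were seen.

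The liver's profile was found again in the mice of the other groups. By the same fit in each group, liver-high genes made up 14% of 17136 tested in FED-HFD, 14.2% of 17227 in CR20-CTRL and 13.7% of 17094 in CR20-HFD. Of the 2381 liver-high genes of the FED-CTRL mice, 2093 (87.9%) were called again in FED-HFD, 2158 (90.6%) in CR20-CTRL and 2101 (88.2%) in CR20-HFD, and 1892 (79.5%) in all. Of the 1016 strongly liver-high genes, 927 were called liver-high in all 4 groups, and of 3223 liver-low genes, 2559 were called in all 4. Alb was at log2FC 15.31, 14.80, 14.17 and 15.63 against the mean in FED-CTRL, FED-HFD, CR20-CTRL and CR20-HFD, Apoa1 at 15.55, 13.91, 14.12 and 15.55 and Ttr at 14.41, 12.35, 12.91 and 13.70. Over the 10 leading genes, which were chosen in the FED-CTRL mice, the median log2FC against eWAT was 17.48 in FED-CTRL, 12.27 in FED-HFD, 13.42 in CR20-CTRL and 15.90 in CR20-HFD. Without mice 10 and 13 the FED-HFD median was 16.06, and without mouse 5 the CR20-CTRL median was 15.61, while the number of genes called again was 2059 and 2133. By list, every liver-high member of the coagulation (19), complement (18), apolipoprotein (17), bile acid (18), urea cycle (8) and amino acid (21) lists was called in all 4 groups, as were 28 of the 29 P450 genes and 10 of the 12 male-biased genes.

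Few genes differed within liver between the groups. In a fit of the 24 liver libraries, 13 of 13787 genes differed between FED-HFD and FED-CTRL (0.0943%) and 52 between CR20-HFD and CR20-CTRL (0.377%), and no gene differed between CR20-CTRL and FED-CTRL (0%) or between CR20-HFD and FED-HFD (0%) by edgeR. Alb was at log2FC -0.19 ± 0.172, -0.12 ± 0.172, -0.06 ± 0.172 and 0.01 ± 0.172 in these 4 comparisons, and Apoa1 and Ttr lay between -0.16 and 0.15. Of 2374 liver-high genes in this fit, 5 were lower in FED-HFD than in FED-CTRL and 0 higher, or 0.211%. That comparison shares the FED-CTRL livers with the choice of the genes. In CR20-HFD against CR20-CTRL, which shares none of them, 16 were lower and 6 higher, or 0.927%. These counts rest on few libraries: leaving out 1 liver at a time gave 0 to 12 genes for the FED comparison (12 without FED-HFD mouse 10 and 0 without mouse 12 or 23) and 9 to 31 for the CR20 comparison (9 without CR20-HFD mouse 7). By limma voom with quality weights the counts were 15 and 35, and by DESeq2 14 and 44. For the dam's diet, 89 and 117 liver-high genes had an unadjusted p under 0.05, with 0 and 1 called by DESeq2 and 0 and 0 by limma voom.

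The liver-high genes that differed with diet are named here after their values were seen. Pnpla5, a lipase of the patatin family, had a log2FC of -3.89 (adjusted p = 0.0336) in the FED groups and -7.08 ± 0.893 (adjusted p = 0.000143) in the CR20 groups. Gask1a and the predicted genes Gm35986 and Gm11773 were lower in both comparisons as well, at -2.76, -2.06 and -1.99 in the FED groups and -3.30, -2.75 and -2.39 in the CR20 groups, and Adgrf1 was called in the FED groups (-1.57) but not in the CR20 groups (-0.30, adjusted p = 0.709), with the difference between groups not tested. In the CR20 groups Elovl6 and Elovl5, fatty acid elongases, fell by 2.47 and by 1.34 on the log2 scale (adjusted p = 0.015 and 0.00571), Pklr fell by 1.34 (0.0431) and Cyp3a11 fell by 1.41 (0.0438). Cyp2c37, an arachidonic acid-metabolising P450, rose by 1.46 (0.000229) and the scavenger receptor Marco rose by 1.35. In the FED groups the log2FC of these 6 genes had the same sign but none was called: Elovl6 was at -2.0, Elovl5 at -0.89, Pklr at -1.44, Cyp3a11 at -1.18, Cyp2c37 at 0.87 and Marco at 0.86. The edgeR adjusted p of Pklr there was 0.0551, just past the threshold, and those of the others lay between 0.0868 and 0.519. At an unadjusted p under 0.05 the liver-high genes with a difference made up 11.1%, 17.3%, 3.75% and 4.93% in the 4 comparisons, against 6.66%, 9.57%, 2.17% and 3.58% of all genes.

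Levels varied more between mice in liver than in the other tissues. Over genes with a mean log2 CPM above 1, the median SD between the 6 FED-CTRL mice was 0.303 on the log2 scale in liver, 0.144 in eWAT and 0.194 in pituitary, and it was 0.326 for strongly liver-high genes in liver. Liver libraries were shallower, and the part of depth and of the extraction method in this spread was not tested. Among the most variable liver-high genes were BC023105, Tgtp1, Gm12250, Gbp10, Iigp1 and Igtp, which belong to interferon-inducible GTPase families of the response to intracellular pathogens. These 6 were chosen after their values were seen, and carry no test. Their summed level was 937, 7136, 3117, 6324, 6668 and 1284 CPM in the livers of mice 14, 15, 16, 24, 41 and 42. It was 91.8, 549, 327, 401, 398 and 233 CPM in the eWAT of the same mice, and 48.3, 215, 103, 169, 179 and 89.7 CPM in their pituitaries. By these sums mice 14 and 42 stood lowest in all 3 tissues and mouse 15 highest. Gene by gene, they were the lowest pair for 6 of the 6 genes in liver, 5 in eWAT and 3 in pituitary, and mouse 14 alone was lowest for 5 genes in liver, 6 in eWAT and 5 in pituitary. Iigp1 was at 680, 3645, 1749, 3565, 3847 and 629 CPM in liver, where mouse 41 was highest. Related genes left out of the sum also varied: Gm4841 was at 2.81, 22.4, 6.28, 23, 33.2 and 1.25 CPM in these livers, with mouse 42 lowest, and F830016B08Rik was at 7.89, 71.8, 38.6, 49.9, 25.4 and 18.7 CPM.

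**Figure D5:**
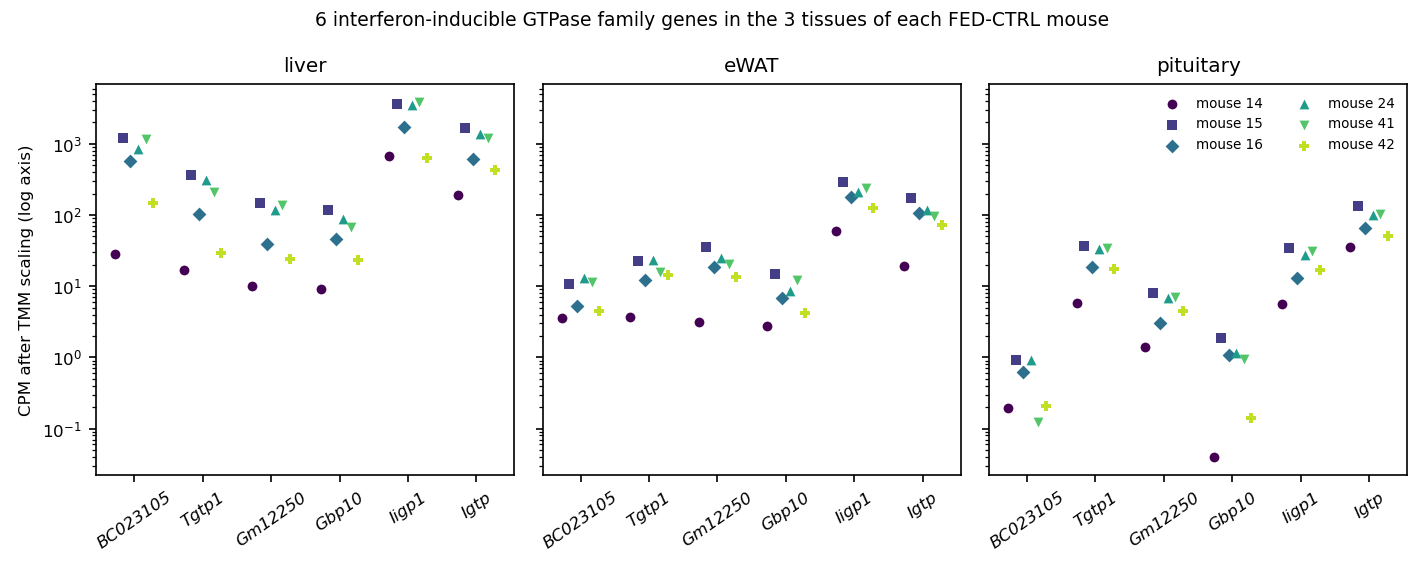
CPM after TMM scaling (log axis) of 6 interferon-inducible GTPase family genes, 1 symbol per FED-CTRL mouse, in liver, eWAT and pituitary. Mouse 14 is lowest for 5 of 6 genes in liver, and the same mouse is lowest for 6 genes in eWAT and 5 in pituitary.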

How the data were processed

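RNA-seq gene counts of 72 libraries were used as deposited: per the labels and methods, the authors trimmed paired-end reads with Trimmomatic, aligned them with STAR to GRCm39 and counted reads per gene with Subread featureCounts, and the strand setting is not given in the sources used here. Libraries were stranded, and the labels name a total RNA kit while the methods also name an mRNA kit, without saying which tissue each was used for. Reads of overlapping genes and of near-identical copies may be divided or dropped. Of 55416 genes in the deposited counts, 54749 were named from the annotation. No 2 libraries held identical values.

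Counts of the 18 FED-CTRL libraries were filtered by edgeR's filterByExpr, scaled by TMM and fitted by edgeR 4.0.16 (R 4.3.3) with tissue and the animal as a block, since the labels give 1 number to the tissues of 1 mouse; the deviations of 2 tissues of the same mouse correlated at a median of 0.05 to 0.06, and those of different mice at -0.02 to 0. The same fit was made in each other group, and 1 fit covered the 24 livers. A gene with no count in a tissue was given a bound at 3 counts over its 6 libraries; the prior count was 2. Alternatives were limma 3.58.1 voom with quality weights (the authors' test), DESeq2 1.42.0, other scalings, filters and fold thresholds, no replicate block, and leaving out each mouse. In simulated counts, 196 of 200 genes raised by a log2FC of 2 in liver were recovered in the tissue fit of 16756 genes, with 0 wrong calls; in the fit of the 24 livers (13625 genes), 192 of 200 were recovered with 4 wrong calls by edgeR and 193 with 11 by DESeq2.

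Genes named were Alb, Apoa1 and Ttr, the 10 highest and 10 lowest by log2FC against the mean, and members of 32 gene lists; others are marked where they occur. The members and lists were chosen with earlier results of these data known. Bounds at 3 counts cover counting error only. Standard errors of edgeR values were taken as the size of the log2FC divided by the square root of the F statistic of its test. They include the spread between mice, and where a tissue has almost no counts they depend on the prior count, as the log2FC does. Some items are not reported here.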

Additional observations from a re-analysis of the deposited data

Results flagged for a closer look

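For 5 of 106 named genes, 1 FED-CTRL mouse lay apart from the other 5 in the difference between its liver and the mean of its other tissues (log2 CPM), by a gap above the 95% critical value of Dixon's test; chance gives about 1 in 20. Trf, transferrin, was lowest in mouse 41 at 6.05, against 7.00 to 7.31 in the others, and its liver held 13934 CPM against 26053 to 29477 CPM. Tat, tyrosine aminotransferase, was highest in mouse 41 at 13.42, against 11.90 to 12.46. Acot12 was highest in mouse 41 at 8.71, against 8.05 to 8.27. Cyp2e1 was highest in mouse 16 at 12.33, against 11.07 to 11.27, where the eWAT library held 37 CPM against 73.3 to 192 CPM in the others. Acot3 was lowest in mouse 24 at 6.74, against 8.45 to 9.23, with 10.2 CPM in liver against 37.6 to 68.3 CPM. The causes were not tested.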

How the results depend on the processing

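The counts of genes by tissue kept their size (within 1.5 times) under DESeq2, limma voom, DESeq2 size factors, no filter and a filter at 1 CPM, and differed with scaling by library totals or a minimum log2FC of 2. By library totals, 2355 genes were higher, 1584 were liver-high, 5107 were liver-low, and 1415 liver-high genes were called again in CR20-CTRL. At a minimum log2FC of 2, 2026 were higher, 1421 liver-high and 2025 liver-low, and 1260, 1288 and 1267 were called again in FED-HFD, CR20-CTRL and CR20-HFD, since fewer genes can pass. The counts of liver-high genes that differed with diet (5 in the FED groups, 22 in the CR20 groups) rest on single libraries and on the tool. They were 14 and 44 by DESeq2, which also gave 1 gene for CR20-HFD against FED-HFD, 15 and 35 by limma voom, 3 and 6 at a minimum log2FC of 2, and 37 in the CR20 groups at a minimum of 0.58. Leaving out 1 mouse at a time gave 0 to 12, 9 to 31 and, for CR20-HFD against FED-HFD, 0 to 1. The FED count was 1 without FED-CTRL mouse 14 or 41, 3 without 16 or 42, 12 without FED-HFD mouse 10, 1 without 11, 0 without 12 or 23, 2 without 13, 8 without CR20-CTRL mouse 5 and 2 without CR20-HFD mouse 6. The CR20 count was 13 without CR20-CTRL mouse 47 or 4, 14 without 49 and 9 without CR20-HFD mouse 7, and the single gene for CR20-HFD against FED-HFD appeared without mouse 41, 49 or 4. The causes were not tested. Leaving out 1 mouse of the tissue comparison gave 3686 to 3759 higher and 2360 to 2398 liver-high genes. Without the animal as a block, 3744 genes were higher, 5243 lower, 2406 liver-high, 3229 liver-low and 1019 strongly liver-high, and 2110, 2178 and 2121 were called again, so the pairing changed no count by more than 1.5 times and no named gene's call. Leaving out mice 10 and 13, an alternative chosen after the data were seen, gave 2059 genes called again in FED-HFD. For the 106 genes followed across settings, calls were judged at a log2FC of at least 1 throughout. Glul fell below that threshold by library totals (0.51, adjusted p = 0.000116). No other call changed with the test, scaling, filter, block or a mouse left out. Settings with another minimum log2FC reused the main fit, so they could not change these calls. A minimum of 2 would drop Glul (1.22 in the main fit), Gstm1 (1.73), Tbx3 (1.93) and Cpt1a (1.97). Liver depth limits genes under 0.304 CPM.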
